A study of Homo sapiens with 18 samples.

Results

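The genes described here are 35 genes of the unfolded protein response and of protein folding in the endoplasmic reticulum (ER). They were chosen by name, with earlier results of these data known. Each is represented by 1 probe set, the brightest over 18 arrays among those annotated to that gene alone. Of the 35, 34 were measured and all 34 passed the filter on low signal, among 14418 genes tested in the series. SYVN1, a ubiquitin ligase of ER-associated degradation, had no probe set of its own. The arrays carry RNA from ZsGreen-transduced cells of the human osteosarcoma lines MNNG/HOS and 143B, grown as bone tumors at the orthotopic site. The cells carried PKH26, a dye of the cell membrane that daughter cells share at division. They were sorted into cells that kept it (High, labelled as tumor-initiating cells) and cells that had diluted it (Low, the bulk of the tumor). Per tumor, 150000 High and 700000 Low cells were sorted, so the number of cells and the dye fraction cannot be told apart. The groups are 4 MNNG_High, 4 MNNG_Low, 3 143B_High and 5 143B_Low arrays, and 2 arrays of MNNG lung metastases (MNNG_Lung) for which the labels state no sorting. All groups carry ZsGreen, and no group is untreated normal bone.

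Each number marks 1 tumor, so High and Low arrays of a number share a tumor. In 143B_High, 2 of the 3 arrays are pools of 2 tumors (143B-51&52 and 143B-54&55). Of the lung arrays, 1 belongs to animal MNNG-1233 and the other to a mixture whose makeup the labels do not state. The labels end in 3 date tags. All 143B arrays carry a tag of their own, so line and date tag cannot be told apart. All MNNG_High arrays, the lung arrays and 1 MNNG_Low array carry the second tag, and the other 3 MNNG_Low arrays carry the first. The lung arrays stand apart, with an interquartile range of log2 signal of 2.09 to 2.28 against 2.76 to 3.48 on the 16 bone arrays. Among the bone arrays, those of MNNG_High had the narrowest range, 2.76 to 3.18. Of the osteoblast markers, RUNX2, COL1A1 and SPARC were clearly above the filter value of 5.36 in every bone group, and the group means of SP7, ALPL, IBSP and DMP1 were below it there.

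Proteins that enter the secretory pathway fold in the ER with the help of the chaperone BiP (HSPA5), its co-chaperones, the lectins calnexin and calreticulin, and enzymes that form disulfide bonds. When unfolded proteins accumulate, sensors in the ER membrane respond. IRE1 (ERN1) splices the mRNA of the transcription factor XBP1, PERK (EIF2AK3) phosphorylates eIF2α and so favors translation of ATF4, and ATF6 is cut to release a transcription factor. Together they raise chaperones and degradation genes, and under lasting stress the factor CHOP (DDIT3). Osteoblast lineage cells secrete large amounts of collagen, and this pathway is known to serve them. The arrays measure total mRNA of each gene, so splicing of XBP1, phosphorylation of PERK and cutting of ATF6 were not measured. All values below are RMA log2 signals, in which a difference of 1 is a doubling, and levels are not compared between genes.

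The promoters of these genes were searched for known response elements, which 12 of the 33 members with a promoter sequence hold and the other 21 do not. RefSeq promoter windows (assembly GRCh38.p14, 250 bases before to 50 after a start) were found for 33 of the 35 members. They were searched on both strands for the ER stress response element (ERSE, CCAAT and CCACG separated by 9 bases), which ATF6 and the factor NF-Y are known to bind. ERSE was present in 7 of the 33 members (21.2%) and in 25 of all 27305 genes with a window (0.0916%). The 7 are the chaperones HSPA5 and HSP90B1, the lectins CALR and CANX, the disulfide isomerases PDIA6 and CRELD2, and the transcription factor XBP1. The stretches that hold it are shown from 5′ to 3′ on the strand of the gene, with the element in capitals, because they lie before genes that differ in how they behave below.

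HSPA5 ERSE, chr9:125241371-125241429, minus strand: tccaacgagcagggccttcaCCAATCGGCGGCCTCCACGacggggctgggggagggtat
HSP90B1 ERSE, chr12:103930196-103930254, plus strand: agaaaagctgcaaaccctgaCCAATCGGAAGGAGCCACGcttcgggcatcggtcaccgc
HSP90B1 ERSE, chr12:103930301-103930359, plus strand: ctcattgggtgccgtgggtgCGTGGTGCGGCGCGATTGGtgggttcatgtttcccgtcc
CALR ERSE, chr19:12938364-12938422, plus strand: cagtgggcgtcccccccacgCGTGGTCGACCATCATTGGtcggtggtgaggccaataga
CANX ERSE, chr5:179698758-179698816, plus strand: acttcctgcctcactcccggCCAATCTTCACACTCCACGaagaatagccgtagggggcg
PDIA6 ERSE, chr2:10812833-10812891, minus strand: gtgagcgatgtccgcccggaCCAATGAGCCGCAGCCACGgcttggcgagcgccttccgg
CRELD2 ERSE, chr22:49918534-49918592, plus strand: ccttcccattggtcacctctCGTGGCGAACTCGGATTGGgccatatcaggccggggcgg
XBP1 ERSE, chr22:28800583-28800641, minus strand: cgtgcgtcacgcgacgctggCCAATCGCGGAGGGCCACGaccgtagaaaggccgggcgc

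The shorter ERSE-II (ATTGG and CCACG separated by 1 base) was present in 3 members (9.09%) and in 19 of all genes (0.0696%), and ERSE or ERSE-II in 10 members (30.3%) and in 44 of all genes (0.161%). TGACGTGG, the core of the unfolded protein response element, was found in HYOU1 alone of the members, where it overlaps an ERSE-II, and in 253 of all genes (0.927%). TGATG, any base and AA, the C/EBP-ATF composite site that ATF4 is known to bind, was found in 3 members, HERPUD1, CHAC1 and ASNS (9.09%), and in 1217 of all genes (4.46%). A match is a run of letters, not a shown binding site. The second set below gives the ERSE-II of HYOU1 (which has it at 2 places), SDF2L1 and HERPUD1, and the composite site of CHAC1 and ASNS, with the same use of capitals.

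HYOU1 ERSE-II, chr11:119057360-119057410, minus strand: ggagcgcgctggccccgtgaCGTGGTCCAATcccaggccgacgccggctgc
HYOU1 ERSE-II, chr11:119057254-119057304, minus strand: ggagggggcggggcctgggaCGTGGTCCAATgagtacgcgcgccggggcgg
SDF2L1 ERSE-II, chr22:21642094-21642144, plus strand: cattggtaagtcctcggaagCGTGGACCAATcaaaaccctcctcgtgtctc
HERPUD1 ERSE-II, chr16:56932005-56932055, plus strand: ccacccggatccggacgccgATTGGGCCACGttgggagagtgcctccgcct
CHAC1 C/EBP-ATF, chr15:40953242-40953289, plus strand: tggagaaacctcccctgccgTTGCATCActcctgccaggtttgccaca
ASNS C/EBP-ATF, chr7:97872449-97872496, minus strand: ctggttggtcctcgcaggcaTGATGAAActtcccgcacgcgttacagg

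The clearest differences among the 34 members in bone tumors were between the lines. In Low cells, 9 members were higher and 5 lower in 143B than in MNNG (adjusted p under 0.05 in one limma fit over all genes, written as called from here on). That is 14 of 34, beside 28.8% of all genes called, 14.4% higher and 14.5% lower. In High cells 12 were higher and 3 lower, 15 of 34, beside 36.1% of all genes, 21.4% higher and 14.7% lower. The median difference over the members was 0.17 in Low and 0.28 in High cells, against -0.04 and 0.01 over all genes. The comparisons share no arrays, though they share tumors, and 10 members were called in the same direction in both (29.4% of the 34), beside 20% of all genes, with 7 higher in 143B beside 12.8% and 3 lower beside 7.28%. These 10 are 71.4% of the members called in Low cells and 66.7% of those called in High cells. Over all genes the same shares were 69.5% and 55.5%. The arrays of the lines did not overlap for 15 members (44.1%) in Low cells, beside 38.3% of all genes. In High cells they did not overlap for 17 members (50%), beside 42.0% of all genes. Non-overlap in single members below is to be read beside these shares.

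**Figure D1:**
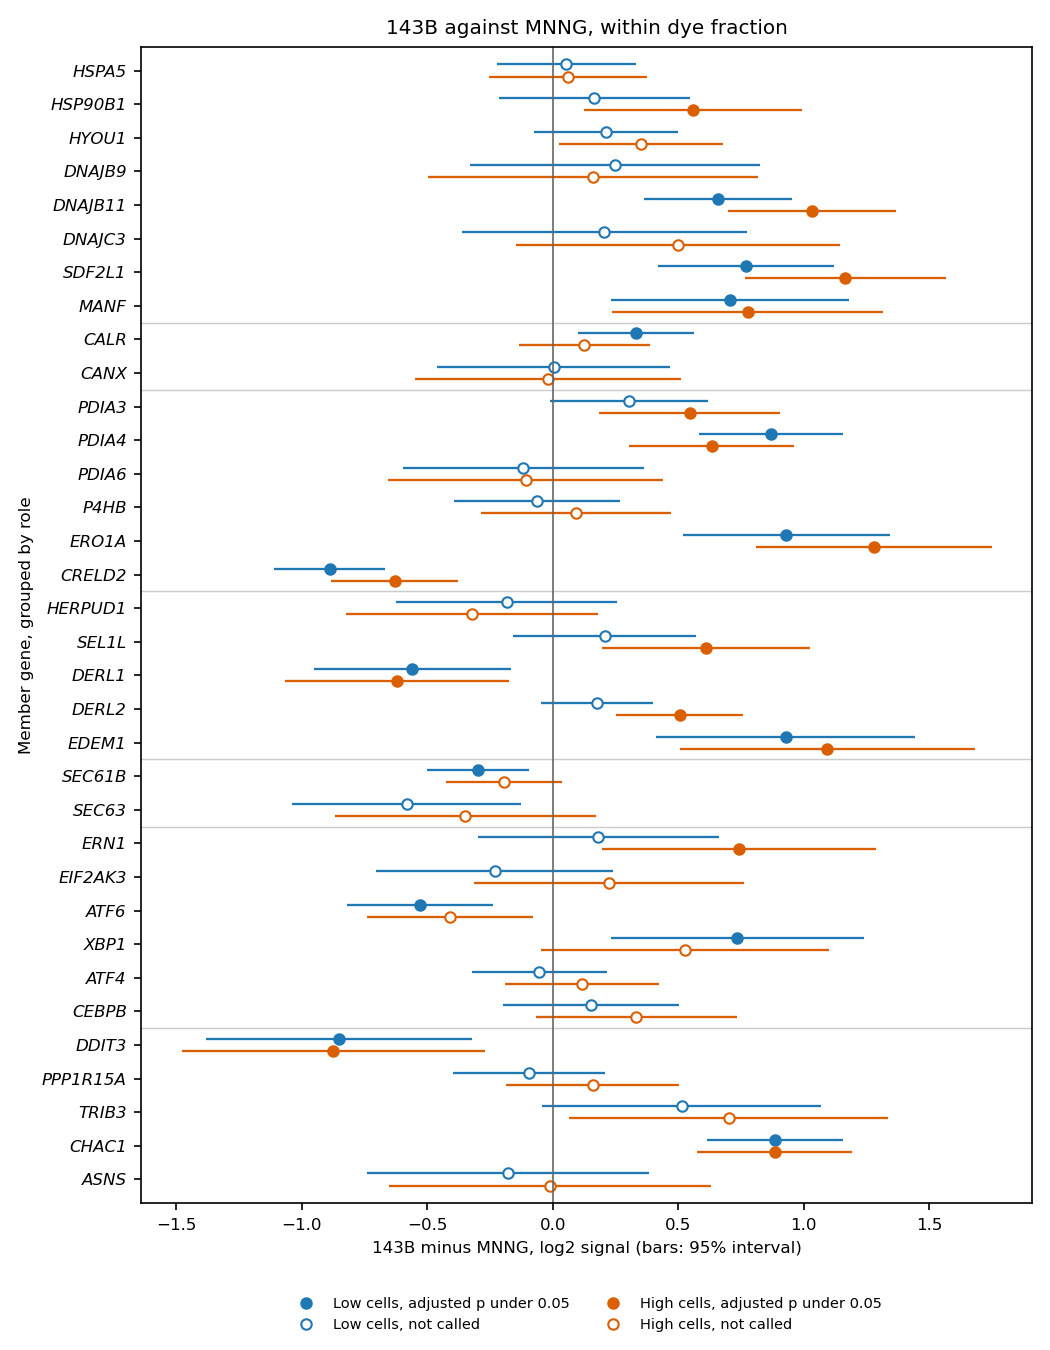
Difference in RMA log2 signal between 143B and MNNG for each of the 34 measured members (vertical axis, grouped by role), in Low cells (blue, n = 5 and 4) and High cells (orange, n = 3 and 4). Points are limma estimates, bars 95% intervals, and filled points are called; DNAJB11, SDF2L1, ERO1A and EDEM1 lie to the right in both and CRELD2 and DDIT3 to the left.

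All 8 chaperones and co-chaperones had estimates above 0 in both fractions, beside 44.7% of all genes in Low and 50.8% in High cells. In Low cells 3 were called (37.5%) and in High cells 4 (50%), beside 28.8% and 36.1% of all genes. DNAJB11 (223054_at), a BiP co-chaperone, read 10.42, 10.55, 10.56 and 10.59 in MNNG_Low and 11.09, 11.38, 11.21, 11.20 and 11.05 in 143B_Low. In High cells it read 10.09, 10.37, 9.73 and 10.42 in MNNG and 11.38, 11.19 and 10.99 in 143B. Every 143B array lay above every MNNG array. The difference was 0.66 ± 0.14 (SE) in Low cells, 1.58-fold (adjusted p = 0.00137), and 1.03 ± 0.16 in High cells, 2.05-fold (adjusted p = 7.56e-05).

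SDF2L1 (218681_s_at), a BiP partner with an ERSE-II before its start, was between 8.05 and 8.31 in MNNG_Low (8.15, 8.31, 8.05 and 8.07). It read 8.80, 8.89, 8.96, 8.83 and 9.10 in 143B_Low. In High cells it was at 7.63, 8.32, 7.35 and 8.01 in MNNG and at 9.17, 8.96 and 8.84 in 143B. The lines again did not overlap, with a difference of 0.77 ± 0.17 in Low cells (adjusted p = 0.00163) and 1.17 ± 0.19, 2.24-fold, in High cells (adjusted p = 0.000137). MANF, a secreted ER protein that binds BiP, rose by 0.70 ± 0.23 in Low cells (adjusted p = 0.0244) and by 0.78 ± 0.26 in High cells (adjusted p = 0.0258) from MNNG to 143B. HSP90B1, the ER HSP90 known as GRP94, was called in High cells (0.56 ± 0.21, adjusted p = 0.0419), and was at 0.17 ± 0.18 in Low cells (adjusted p = 0.568), where its other probe set was called higher, by 0.43 (adjusted p = 0.0288).

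HSPA5 itself did not pass the test in either fraction. Its mean was 12.85 ± 0.03 (SD, n = 4) in MNNG_Low, 12.91 ± 0.10 (SD, n = 5) in 143B_Low, 12.82 ± 0.22 (SD, n = 4) in MNNG_High and 12.88 ± 0.08 (SD, n = 3) in 143B_High. The 95% interval of the line difference was -0.22 to 0.33 in Low cells and -0.25 to 0.38 in High cells. A second probe set of HSPA5 was lower in 143B_Low (-0.44, adjusted p = 0.0411 in a fit over all probe sets). HYOU1, DNAJB9 and DNAJC3, further partners of BiP, were not called in either fraction by their brightest probe sets, with differences from 0.16 to 0.50. Of the other probe sets of DNAJC3, 1558080_s_at was called higher in 143B_High (1.17, adjusted p = 0.00907), and so was the mean over its probe sets (0.64, adjusted p = 0.0154).

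The lectin CALR was called in Low cells (0.33 ± 0.11, adjusted p = 0.0281) and was at 0.13 ± 0.12 in High cells (adjusted p = 0.436). Its 3 probe sets did not give 1 answer: 200935_at was at -0.10 in Low cells, where the other 2 were at 0.33 and 0.39. CANX, the membrane lectin, was at 0.00 ± 0.22 in Low and -0.02 ± 0.25 in High cells, with intervals of -0.46 to 0.47 and -0.55 to 0.51.

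The disulfide enzymes split. ERO1A (225750_at), the oxidase that drives disulfide formation, read 9.87, 9.65, 9.99 and 9.80 in MNNG_Low against 10.84, 10.61, 10.91, 10.80 and 10.63 in 143B_Low. In High cells it read 9.47, 9.57, 8.93 and 9.83 in MNNG and 10.88, 10.60 and 10.69 in 143B. No array of one line reached the other, and the difference was 0.93 ± 0.20 in Low cells (adjusted p = 0.00131) and 1.28 ± 0.22, 2.43-fold, in High cells (adjusted p = 0.000274). Its other 2 probe sets were called higher as well, by 0.57 to 0.78.

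PDIA4 (211048_s_at), a disulfide isomerase, was at 9.46, 9.44, 9.28 and 9.26 in MNNG_Low and at 10.36, 10.19, 10.29, 10.19 and 10.11 in 143B_Low. It was at 9.92, 9.73, 9.38 and 9.42 in MNNG_High and at 10.52, 10.08 and 10.14 in 143B_High, with no overlap in either fraction. It was higher in 143B by 0.87 ± 0.14 in Low cells (adjusted p = 8.19e-05) and by 0.63 ± 0.16 in High cells (adjusted p = 0.0045). PDIA3, which works with the lectins on glycoproteins, was called in High cells (0.54 ± 0.17, adjusted p = 0.0199) and was at 0.30 ± 0.15 in Low cells (adjusted p = 0.147), where its other 2 probe sets were called higher, by 0.66 and 0.88. P4HB, also a subunit of collagen prolyl hydroxylase, and PDIA6 were between -0.12 and 0.09 and were not called.

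CRELD2 (218358_at), a disulfide isomerase with an ERSE before its start, went the other way. It read 10.31, 10.25, 10.46 and 10.27 in MNNG_Low and 9.23, 9.44, 9.61, 9.42 and 9.48 in 143B_Low. Its High values were 9.98, 9.99, 10.12 and 10.09 in MNNG and 9.56, 9.41 and 9.28 in 143B. All 143B arrays lay below all MNNG arrays, and the difference was -0.89 ± 0.11 in Low cells, 1.85-fold lower (adjusted p = 3.45e-06), and -0.63 ± 0.12 in High cells (adjusted p = 0.000621). Of the 7 members with an ERSE, 2 were called higher (CALR and XBP1) and 1 lower (CRELD2) in 143B_Low, and 1 higher (HSP90B1) and 1 lower (CRELD2) in 143B_High. The all-gene shares were 14.4% higher and 14.5% lower in Low cells, and 21.4% and 14.7% in High cells.

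Of the 5 measured members of ER-associated degradation, which returns misfolded proteins to the cytosol, 2 were called in Low and 4 in High cells. The shares of all genes called were 28.8% and 36.1%. EDEM1, which hands misfolded glycoproteins to degradation, was higher in 143B by 0.93 ± 0.24 in Low cells (adjusted p = 0.00741) and by 1.09 ± 0.28 in High cells (adjusted p = 0.00565). It ranged from 8.61 to 8.93 in MNNG_Low and from 9.33 to 9.98 in 143B_Low. DERL2 (218333_at), a channel component, was at 9.50, 9.84, 9.71 and 9.90 in MNNG_High and at 10.33, 10.24 and 10.15 in 143B_High, without overlap (0.51 ± 0.12, adjusted p = 0.00361). In Low cells DERL2 was at 0.18 ± 0.11 (adjusted p = 0.246), while its other probe set was called higher there (0.61, adjusted p = 0.00192), as was the mean over both (0.39, adjusted p = 0.00528). SEL1L, the scaffold of the ubiquitin ligase, was called in High cells (0.61 ± 0.20, adjusted p = 0.0232).

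DERL1, the close relative of DERL2, was lower in 143B by 0.56 ± 0.19 units in Low cells (-0.56, adjusted p = 0.0307) and by 0.62 ± 0.21 in High cells (-0.62, adjusted p = 0.0308). All 4 of its probe sets had estimates below 0 in both fractions. HERPUD1, a degradation factor with an ERSE-II and a composite site, was at -0.18 ± 0.21 and -0.32 ± 0.24 and was not called. Of the translocon members, through which chains enter the ER, SEC61B was called lower in 143B_Low (-0.30 ± 0.10, adjusted p = 0.0253), and SEC63 was at -0.58 ± 0.22 (adjusted p = 0.0524); neither was called in High cells. The second probe set of SEC61B was called higher in 143B_High (0.98, adjusted p = 0.0358) and was at 0.37 in Low cells (adjusted p = 0.42).

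**Figure D2:**
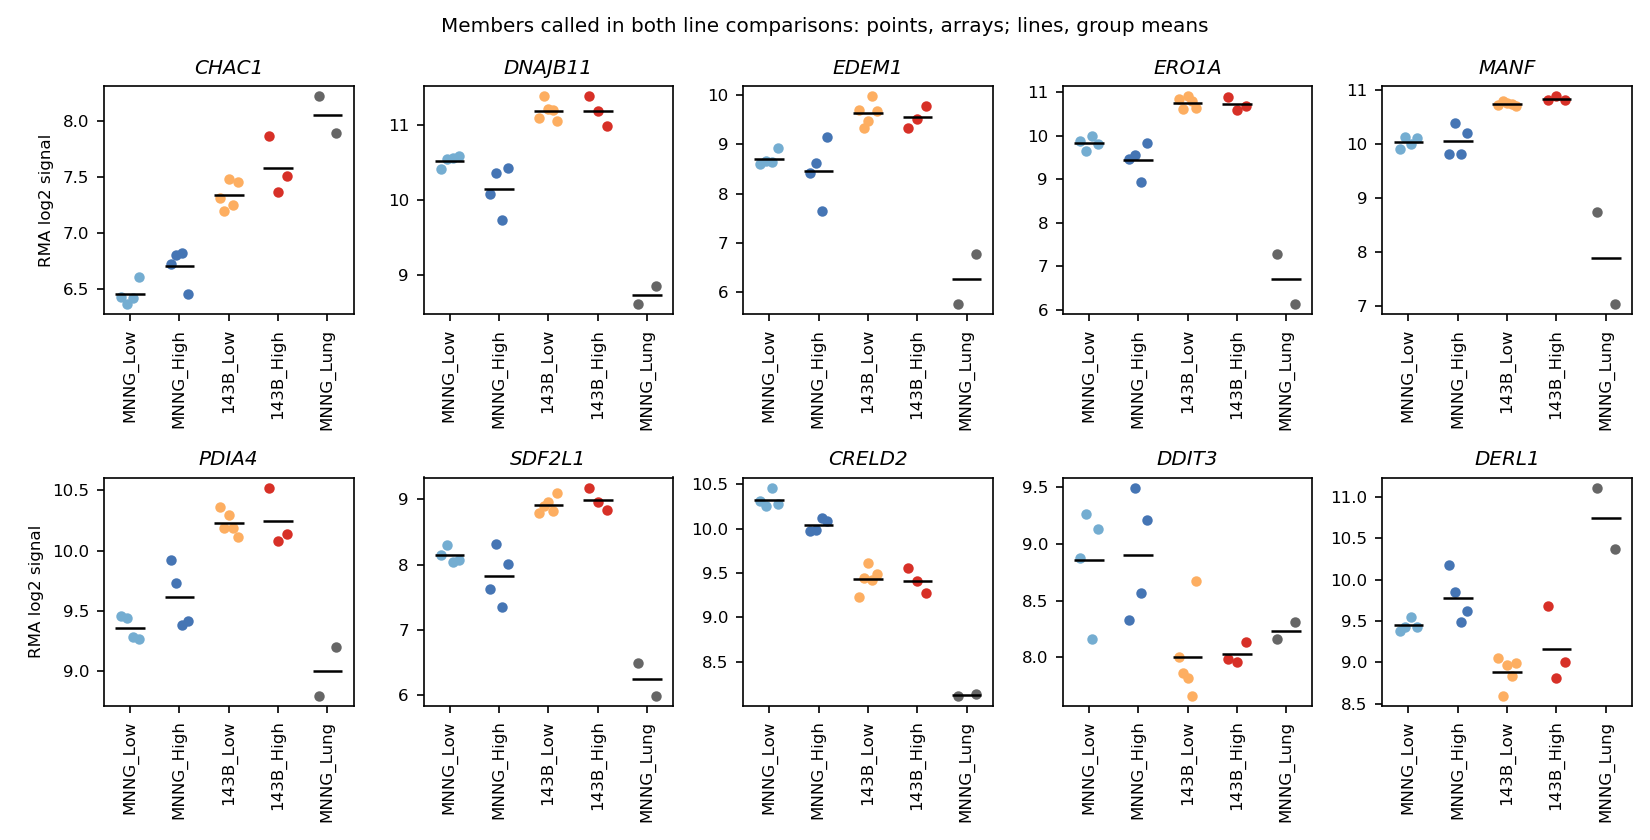
RMA log2 signal of the 10 members called in both line comparisons, 1 panel a gene, with its own vertical axis; points are arrays (4 MNNG_Low, 4 MNNG_High, 5 143B_Low, 3 143B_High and 2 MNNG_Lung) and lines are group means. The 143B arrays lie above all MNNG bone arrays of the same fraction for CHAC1, DNAJB11, EDEM1, ERO1A, MANF, PDIA4 and SDF2L1 and below them for CRELD2, while DDIT3 overlaps in Low cells and DERL1 in High cells.

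Of the 6 sensors and transcription factors, XBP1 and ATF6 were called in Low cells and ERN1 in High cells, beside 28.8% and 36.1% of all genes. XBP1 (200670_at) read 8.16, 8.90, 8.45 and 8.75 in MNNG_Low and 9.05, 9.18, 9.48, 9.23 and 9.57 in 143B_Low. Its High values were 7.44, 8.81, 7.97 and 8.88 in MNNG and 8.68, 8.89 and 8.83 in 143B. The lines were apart in Low cells (0.74 ± 0.24, adjusted p = 0.0268) and overlapped in High cells (0.53 ± 0.27, adjusted p = 0.137).

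ATF6 (226941_at) was at 8.77, 8.83, 8.94 and 8.74 in MNNG_Low and at 8.45, 8.21, 8.31, 8.31 and 8.16 in 143B_Low. It was at 8.36, 8.67, 8.0 and 8.65 in MNNG_High and at 7.82, 8.21 and 8.01 in 143B_High. It was lower in 143B_Low without overlap (-0.53 ± 0.14, adjusted p = 0.00687) and at -0.41 ± 0.16 in High cells, where the groups overlap (adjusted p = 0.051).

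ERN1 (235745_at) read 7.85, 8.18, 7.45 and 8.10 in MNNG_Low and 7.72, 8.20, 8.11, 8.09 and 8.25 in 143B_Low, which overlap. It read 7.29, 8.01, 6.60 and 7.79 in MNNG_High and 8.05, 8.39 and 8.05 in 143B_High, which do not overlap, a difference of 0.74 ± 0.26 (adjusted p = 0.0335). The call for ERN1 rested on its brightest probe set, since the mean over its probe sets gave 0.06 (adjusted p = 0.793).

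EIF2AK3 (218696_at) was at 9.38, 9.48, 9.41 and 9.79 in MNNG_Low and at 9.23, 9.42, 9.20, 9.36 and 9.20 in 143B_Low. In High cells it was at 8.78, 9.18, 8.22 and 9.81 in MNNG and at 8.97, 9.30 and 9.40 in 143B. The widest spread was within MNNG_High, and neither line difference was called (-0.23 ± 0.22 and 0.22 ± 0.26).

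ATF4 (200779_at), whose protein is controlled mainly through translation, read 12.96, 12.90, 12.74 and 13.01 in MNNG_Low and 12.59, 12.92, 12.82, 12.91 and 13.00 in 143B_Low. Its High values were 12.55, 12.80, 12.42 and 12.91 in MNNG and 12.79, 12.82 and 12.74 in 143B. The lines overlapped, at -0.05 ± 0.13 and 0.12 ± 0.15. CEBPB (212501_at), a partner of ATF4, was at 11.95, 12.30, 11.95 and 12.20 in MNNG_Low and at 11.94, 12.36, 12.41, 12.32 and 12.23 in 143B_Low. It was at 11.81, 12.40, 12.00 and 12.29 in MNNG_High and at 12.46, 12.42 and 12.50 in 143B_High. Its differences, 0.15 ± 0.17 and 0.33 ± 0.19, were not called.

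Among the 5 targets of the PERK and ATF4 branch, 2 were called in each fraction, in opposite directions. Of all genes, 28.8% were called in Low and 36.1% in High cells. CHAC1 (219270_at), an enzyme that degrades glutathione and carries a composite site, was at 6.42, 6.36, 6.41 and 6.61 in MNNG_Low and at 7.31, 7.20, 7.48, 7.25 and 7.45 in 143B_Low. It was at 6.72, 6.80, 6.82 and 6.45 in MNNG_High and at 7.87, 7.37 and 7.51 in 143B_High. The lines did not overlap in either fraction. It was 1.85-fold higher in 143B in Low cells (0.89 ± 0.13, adjusted p = 3.47e-05) and 1.85-fold in High cells (0.88 ± 0.15, adjusted p = 0.000164).

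DDIT3, the stress factor CHOP, was lower in 143B. It ranged from 8.16 to 9.26 in MNNG_Low and from 7.66 to 8.67 in 143B_Low, which overlap, and from 8.33 to 9.49 in MNNG_High and from 7.96 to 8.13 in 143B_High. The differences were -0.85 ± 0.25 (adjusted p = 0.0157) and -0.87 ± 0.29 (adjusted p = 0.0249). TRIB3, a pseudokinase induced by CHOP and ATF4, was at 0.51 ± 0.27 and 0.70 ± 0.30 (adjusted p = 0.168 and 0.0761). ASNS, asparagine synthetase, and PPP1R15A, the phosphatase subunit GADD34 that reverses PERK signaling, were between -0.18 and 0.16 and were not called.

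The line calls differed in how firm they were. DNAJB11, SDF2L1, ERO1A, CRELD2 and CHAC1 were called in both fractions in every alternative that tested them. After a second quantile normalization, 9 members were called in High cells, 5 higher and 4 lower, in place of 12 and 3. Beside them 3882 of all 14418 genes were called, in place of 5203. The counts also fell without single arrays, to 9 in Low cells without the Low array of tumor MNNG-1231 or MNNG-1233, and to 9 in High cells without the High array of tumor MNNG-1231. In those fits 3445, 3518 and 4199 of all genes were called, in that order. Plasma cell markers, whose cell type is known for a strong XBP1 response, differed between the lines in the same arrays. Of the 6 listed, 4 were tested, and in Low cells PRDM1 and SDC1 were higher and IRF4 lower in 143B. The summed level of that list was at most 8.97 in MNNG_Low and at most 10.2 in 143B_Low, and in High cells 8.60 to 8.99 and 9.90 to 10.07, while JCHAIN and TNFRSF17, which define plasma cells, were at means of 2.66 to 3.30 in the bone groups, below the filter value. The tested osteoblast markers also separated the lines, with SPP1 higher and RUNX2, COL1A1, COL1A2 and SPARC lower in 143B in both fractions, and the summed level of that list was 14.04 to 14.36 in MNNG_Low and 11.19 to 12.73 in 143B_Low. Of 3 tested endothelial markers, TIE1 was higher in 143B, by 4.53 in Low and 4.41 in High cells. The summed endothelial level was 9.38 to 9.71 in 143B_Low and 7.59 to 7.80 in MNNG_Low. ACTA1 of skeletal muscle was lower in 143B in both fractions (-0.58 and -0.81). In High cells SFTPC of lung epithelium (-0.36) and CD38 of the plasma cell list (-0.54) were lower, and EPCAM was higher (0.80). In High cells 3 of 6 tested macrophage markers (CSF1R, AIF1 and FCER1G) and both tested neutrophil markers (CSF3R and LTF) were lower in 143B, with the macrophage list at a summed level of 9.22 to 9.73 against 9.94 to 10.89 and the neutrophil list at 6.99 to 7.23 against 7.33 to 8.0. Beside these markers, 14.4% of all genes were higher and 14.5% lower in Low cells, and 21.4% and 14.7% in High cells. Whether the marker differences came from the tumor cells of the lines or from other cells was not tested. Nor was their part in the members' differences. The 3′ minus 5′ signal of GAPDH, a measure of RNA quality, was 0.43 to 0.85 in 143B_Low against 0.34 to 0.41 in MNNG_Low, without overlap, and 0.58 to 1.04 in 143B_High against 0.50 to 0.75 in MNNG_High. With it as a covariate, 10 members were called in Low cells, 7 higher and 3 lower, and 16 in High cells, 14 higher and 2 lower. Beside them 3649 and 5694 of all genes were called. In Low cells the interquartile range of log2 signal was 3.30 to 3.48 in 143B and 3.29 to 3.40 in MNNG. In High cells it was 3.26 to 3.34 in 143B and 2.76 to 3.18 in MNNG, without overlap. The part of this range in the members' differences was not tested.

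Beyond the members, 135 of 145 further genes of the same processes were tested. In Low cells 28 were higher and 19 lower in 143B, and in High cells 48 and 12, with medians of 0.03 and 0.30. Over all genes 14.4% were higher and 14.5% lower in Low cells, and 21.4% and 14.7% in High cells. The all-gene medians were -0.04 and 0.01. The Low shares also stand beside the list counts that follow. In other ER folding, 6 of 28 were higher and 2 lower in Low cells, led by the BiP co-chaperone and reductase DNAJC10 (1.40), the sulfhydryl oxidase QSOX1 (1.49) and the prolyl isomerases FKBP11 (1.23) and FKBP9 (0.79). In other ER-associated degradation, 3 of 23 were higher and 7 lower. The 4 with the smallest p were the mannosidase MAN1B1 (-0.88), the ubiquitin enzymes RNF139 (-1.09) and UBE2G2 (-0.81), and EDEM2 (0.67), a relative of EDEM1.

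In translocon and secretory entry, 7 of 23 were higher and 2 lower in 143B_Low, with SSR3 (1.33) and SSR2 (-0.97), both subunits of the translocon-associated complex, on opposite sides, and with SERP1 (0.85) and TRAM2 (1.36) higher. Of 28 other sensors and factors, 4 were higher and 4 lower, shares close to those of all genes. Among them were the initiation factor subunit EIF2B3 (-0.69), the ATF6 relative ATF6B (-0.53), the factor CREB3L2 (0.55) and the heme-sensing eIF2α kinase EIF2AK1 (0.53). Of 33 other ATF4 targets, 8 were higher and 4 lower, with the serine synthesis enzyme PHGDH at 1.89, the lipoprotein receptor VLDLR at 2.51, the tRNA synthetase EPRS1 at 0.89 and CBS, which makes cystathionine, at -0.63.

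Dye retention was tested within each line, to ask which transcripts mark the cells that divided least. In 143B none of the 34 members was called (limma with Benjamini-Hochberg adjustment), beside 0.00694% of all genes called, and the members' median difference was -0.02, as it was over all genes. The 95% intervals reached 0.22 to 0.63 on either side of the estimates. No member had an unadjusted p under 0.05. XBP1 had the largest estimate, at 9.05 to 9.57 in Low and at 8.68, 8.89 and 8.83 in High cells, without overlap (-0.50 ± 0.26, adjusted p = 0.98). The groups also did not overlap for MANF, PDIA6, SEC63 and CEBPB, whose estimates were between -0.21 and 0.21, and they were not called. Groups without overlap were thus found for 5 of 34 members (14.7%), beside 11.9% of all genes tested.

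In MNNG, 1 of the 34 members was called, CALR, which was higher in High cells, beside 26.1% of all genes called, 10.6% higher and 15.5% lower. CALR (212953_x_at) read 10.05, 10.14, 9.96 and 10.07 in MNNG_Low and 10.28, 10.42, 10.43 and 10.38 in MNNG_High. The groups did not overlap and High was above Low in all 4 tumors (0.32 ± 0.11, 1.25-fold, adjusted p = 0.0483). The call did not hold in the fit over all probe sets (adjusted p = 0.0546), in which 200935_at went the other way (-0.30, adjusted p = 0.26) and the third probe set was at 0.29 (adjusted p = 0.197).

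None of the other members passed the test by its brightest probe set. In the fit over all probe sets, other probe sets of PDIA3 (-0.53 and -0.81, adjusted p = 0.0446 and 0.0223) and ATF6 (-0.54, adjusted p = 0.0216) were called lower in MNNG_High. Those called higher were 1 of HSP90B1 (0.46, adjusted p = 0.0343) and 1 of ERN1 (0.45, adjusted p = 0.0493), whose brightest probe sets were at -0.22 and -0.47. Over the 34, 27 estimates were below 0 and 7 above, with a median of -0.23, beside a median of -0.19 over all genes. Within single tumors the median of the members' differences was -0.34 in tumor MNNG-1231, -0.06 in MNNG-1232, -0.41 in MNNG-1233 and 0.01 in MNNG-1235. XBP1, itself 1 of these members, was at 7.44 and 7.97 on the MNNG_High arrays of MNNG-1231 and MNNG-1233. It was at 8.81 and 8.88 on those of the other tumors. Its MNNG_Low arrays of MNNG-1231 and MNNG-1233 were also below those of the other tumors. Its High minus Low differences were -0.725, -0.086, -0.49 and 0.14 in the tumors in the order above. Those of EIF2AK3, given as another example, were -0.60, -0.30, -1.19 and 0.026. The interquartile range of log2 signal was 2.84 and 2.76 on the High arrays of MNNG-1231 and MNNG-1233. That range was 3.07 and 3.18 on those of MNNG-1232 and MNNG-1235, and its part in the medians was not tested. High was below Low in all 4 tumors for 10 members, HYOU1, DNAJB11, CRELD2, DERL2, SEC61B, SEC63, ERN1, ATF6, ATF4 and ASNS, and above it in all 4 for CALR and PDIA4. Those are 29.4% and 5.88% of the members, beside 41.8% and 18.9% of all genes tested.

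**Figure D3:**
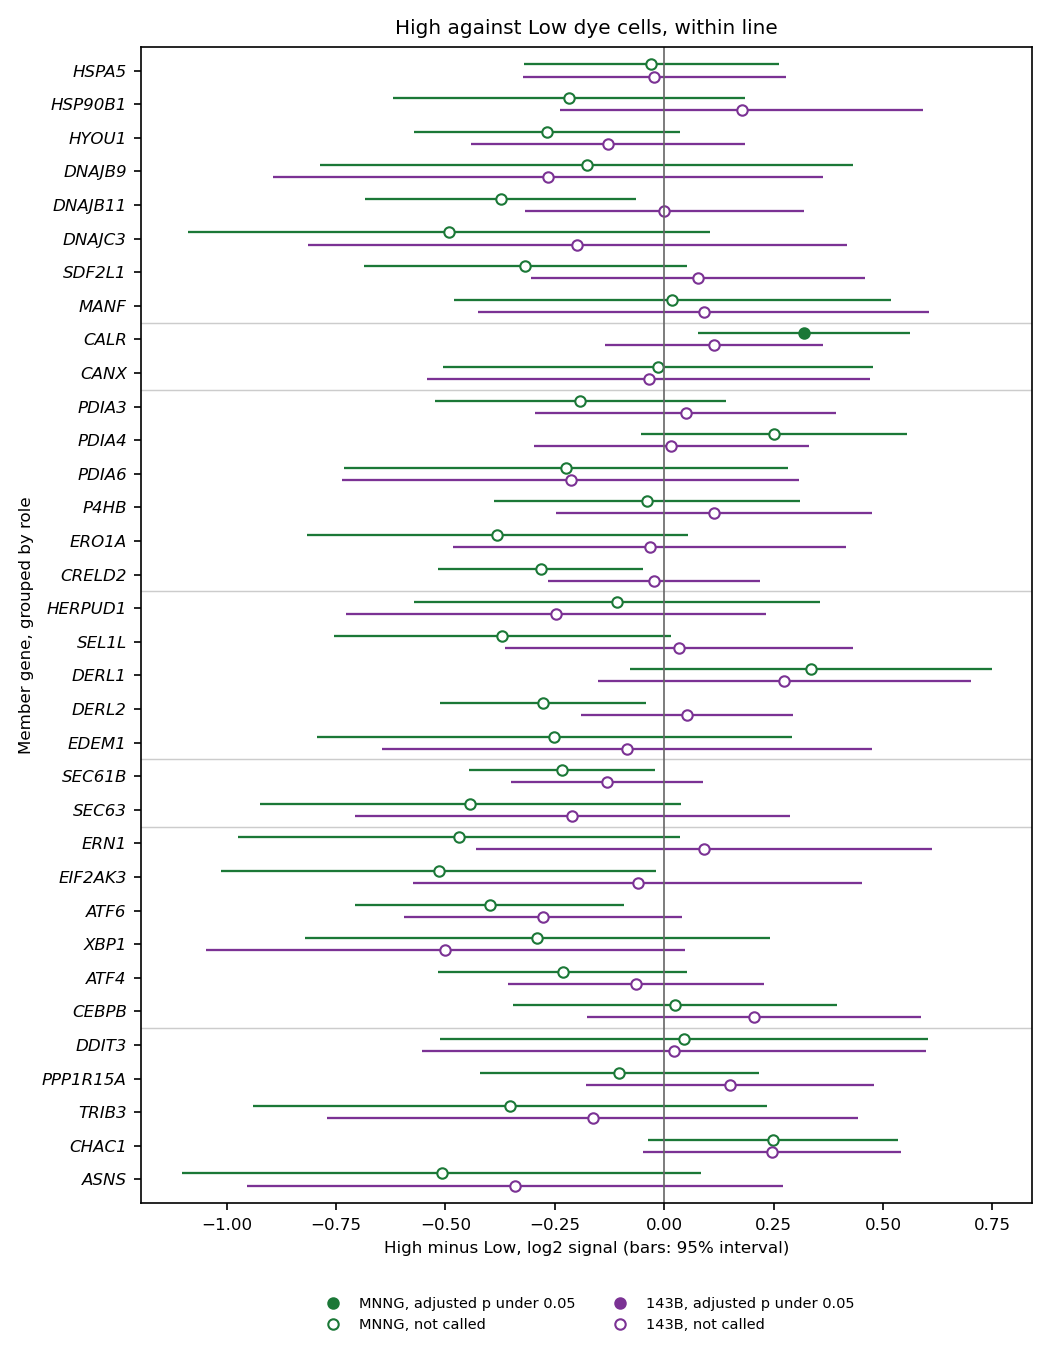
Difference in RMA log2 signal between High and Low dye cells for each of the 34 measured members (vertical axis, grouped by role), in MNNG (green, n = 4 and 4) and in 143B (purple, n = 3 and 5). Points are limma estimates with 95% intervals; only CALR in MNNG is filled, as called, and 27 of the 34 MNNG estimates lie left of 0.

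The numbers of a tumor pair its High and Low arrays, and the paired fit gave other calls. With the tumor as a block and the lung arrays left out, 11 members were called in MNNG, 10 of them lower in High cells. They were SEC63 (-0.44 ± 0.12, adjusted p = 0.0099), ASNS (-0.51 ± 0.15, adjusted p = 0.0139), EIF2AK3 (-0.52 ± 0.16, adjusted p = 0.015), ERN1 (-0.47 ± 0.15, adjusted p = 0.017), DNAJB11, ATF6, DNAJC3, CRELD2, DERL2 and ERO1A, with CALR higher (adjusted p = 0.021). In that fit 8044 of all 14418 genes were called. Leaving out the lung arrays alone gave 8, 7 of them lower, beside 6407 of all genes.

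The direction in MNNG also moved with the scaling. After median centring 5 members were called, all lower, beside 4710 of all genes. After a second quantile normalization the members' median was 0.02 with CALR called higher, beside 1028 of all genes. Without the High array of tumor MNNG-1235, 7 members were called, 6 lower, beside 5939 of all genes, and without that of MNNG-1232 4, all lower, beside 3848. Without any other single array of MNNG bone tumors no member was called (limma), beside 1376 to 2420 of all genes. With date tag as a covariate no member and 3 of all genes were called, and within the second date tag, which leaves 1 Low array, none of either. The High and Low arrays of MNNG also differed in other measures. The interquartile range of log2 signal was 2.76 to 3.18 in MNNG_High and 3.29 to 3.40 in MNNG_Low, without overlap. Cells sorted per tumor were 150000 for High and 700000 for Low. Of 6 tested macrophage markers, out of 13 listed, AIF1, SPI1, FCER1G and C1QA were higher in High cells, and the summed level of the list was 9.94 to 10.89 in MNNG_High and 8.82 to 9.16 in MNNG_Low. Both tested neutrophil markers were higher as well, and the list summed to 7.33 to 8.0 against 7.11 to 7.26. These marker counts stand beside 10.6% of all genes higher and 15.5% lower in MNNG_High. Of the other marker lists, PECAM1 of endothelium (0.52) and SFTPC of lung epithelium (0.39) were higher. AHSP of erythroid cells (0.45) and ACTA1 of skeletal muscle (0.59) were higher too, and EPCAM of lung epithelium was lower (-0.71). PTPRC and LYZ, which define leukocytes and macrophages, were at 4.06 and 4.61 in MNNG_High, below the filter value. The 3′ minus 5′ signal of GAPDH, a measure of RNA quality, was 0.50 to 0.75 in MNNG_High and 0.34 to 0.41 in MNNG_Low. The part of these measures in the members' differences was not tested.

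Among the 135 further genes, 4 were higher and 19 lower in MNNG_High, with a median of -0.26, and none was called in 143B. Over all genes 10.6% were higher and 15.5% lower in MNNG_High, with a median of -0.19, and 0.00694% were called in 143B. The 4 that rose were RNF5 (3.02), a ubiquitin ligase of the ER membrane, DERL3 (0.43), the isomerase PDIA2 (0.59) and the transcription factor ATF5 (0.73). Those that fell included UGGT1 and UGGT2 (-0.70 and -0.42), which check the folding of glycoproteins, DNAJC10 (-0.54), the ubiquitin enzyme UBE2G2 (-0.51), UFD1 (-0.49), which draws proteins out of the ER, and TRAM2 (-0.63) and SRP72 (-0.59) of secretory entry. NFYB (-0.78), a subunit of the factor that binds the CCAAT part of ERSE, the amino acid sensor EIF2AK4 (-0.81) and EIF2B3 (-0.57) fell as well. So did 5 of 33 ATF4 targets (15.2%, beside 15.5% of all genes called lower), and none rose, with ALDH1L2 (-1.15), WARS1 (-0.50), PSPH (-0.77) and XPOT (-0.48) at the smallest p.

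Whether the effect of dye retention differed between the lines was tested directly as the difference of the differences. No member was called and none had an unadjusted p under 0.05 (limma), beside 0.00694% of all genes called, and the members' median was 0.17 against 0.15 over all genes. The largest estimate was that of ERN1 at 0.56 ± 0.35 (interval -0.17 to 1.29, adjusted p = 0.54).

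The lung metastasis arrays were far below the bone tumor cells for most members. Of 34, 29 were lower and 2 higher than MNNG_Low, beside 87% of all genes called, 35.1% higher and 51.9% lower, and 31 were lower and 2 higher than MNNG_High, beside 82.4%, 34.8% and 47.6%. The members' median was -2.69 against MNNG_Low and -2.53 against MNNG_High, and over all genes -0.64 and -0.37. Both comparisons use the same 2 lung arrays, whose distribution is narrower than that of the other arrays. In 5 members, DNAJB9, DNAJC3, SEC63, EIF2AK3 and XBP1, both lung arrays lay under the filter value, so their differences have an uncertain size. Less RNA of a gene per tumor cell and fewer tumor cells in the sample cannot be told apart here.

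**Figure D4:**
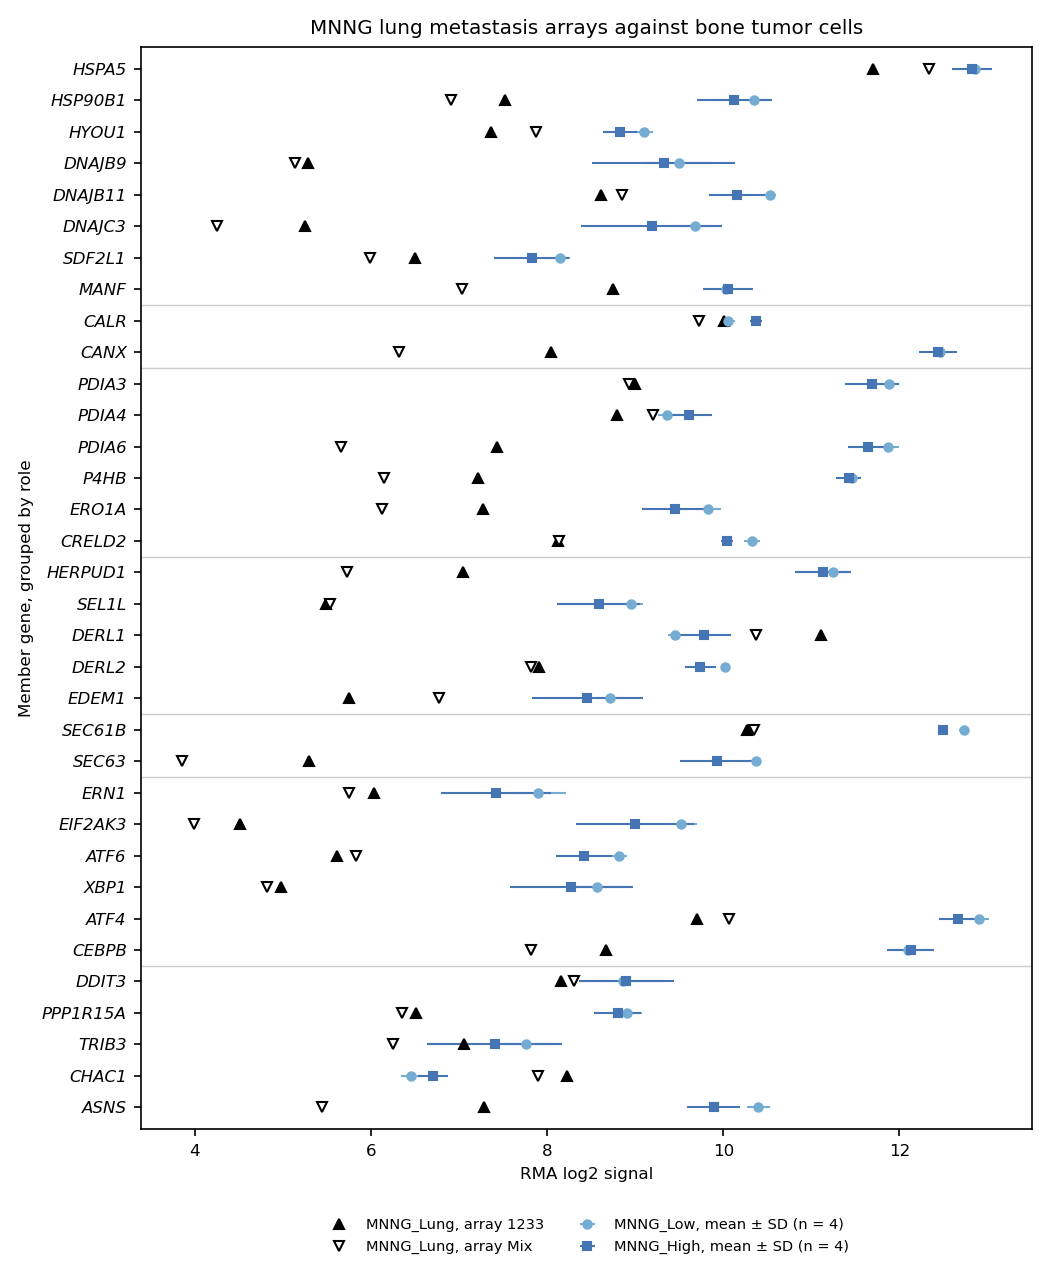
RMA log2 signal of the 34 measured members (vertical axis, grouped by role) in MNNG_Low (circles) and MNNG_High (squares), as mean ± SD of 4 arrays each, and on the 2 lung arrays singly (triangles). Most lung values lie far to the left, while those of CALR, PDIA4 and DDIT3 are near the bone values and those of DERL1 and CHAC1 to the right of them.

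The largest falls against MNNG_Low were those of SEC63 (-5.79), PDIA6 (-5.32, adjusted p = 6.62e-12), CANX (-5.27) and EIF2AK3 (-5.26). The members given here array by array are those with the smallest p, which also depends on the spread between arrays. P4HB (200654_at) was at 7.22 and 6.15 on the lung arrays, against 11.51, 11.53, 11.36 and 11.46 in MNNG_Low and 11.23, 11.55, 11.50 and 11.43 in MNNG_High, a difference of -4.78 ± 0.20 from Low cells (adjusted p = 2.23e-13). CANX (200068_s_at) was at 8.04 and 6.32, against 12.43, 12.40, 12.52 and 12.47 in MNNG_Low and 12.36, 12.53, 12.19 and 12.69 in MNNG_High (-5.27 ± 0.29, adjusted p = 4.89e-12). SEC63 (201916_s_at) was at 5.30 and 3.85, against 10.33, 10.41, 10.30 and 10.44 in MNNG_Low and 9.81, 10.21, 9.39 and 10.30 in MNNG_High (-5.79 ± 0.28, adjusted p = 1.09e-12). The lung arrays lay below every bone array for each of these, and the 2 lung arrays themselves differed by over 1 unit.

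SEC61B (203133_at) differed less between the lung arrays, at 10.27 and 10.34, against 12.80, 12.71, 12.75 and 12.67 in MNNG_Low and 12.47, 12.50, 12.57 and 12.45 in MNNG_High (-2.43 ± 0.12, adjusted p = 2.15e-12), a fall smaller than the members' median. HERPUD1 (217168_s_at) was at 7.04 and 5.73, against 10.99, 11.50, 11.26 and 11.23 in MNNG_Low and between 10.76 and 11.46 in MNNG_High. It was lower by this probe set (-4.86 ± 0.27, adjusted p = 6.97e-12), while its other probe set was higher in lung, by 1.41 (adjusted p = 5.28e-06).

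All 6 sensors and transcription factors were lower in lung, beside 51.9% of all genes against MNNG_Low and 47.6% against MNNG_High. ATF4 was at 9.70 and 10.06 on the lung arrays (-3.02 ± 0.17 against MNNG_Low, adjusted p = 5.47e-12) and CEBPB at 8.67 and 7.82 (-3.88 ± 0.22 against MNNG_High, adjusted p = 1.01e-11). EIF2AK3 was at 4.52 and 3.99 (-5.26 ± 0.29 against MNNG_Low, adjusted p = 6.08e-12). XBP1 read 4.98 and 4.82, ATF6 5.62 and 5.83, and ERN1 6.04 and 5.76. A second probe set of ERN1 was higher in lung, by 2.16, and so was that of XBP1, by 0.77.

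HSPA5 was at 11.70 and 12.33 on the lung arrays by its brightest probe set (-0.83 ± 0.17 against MNNG_Low, adjusted p = 0.000162), and its other probe set was lower by more (-2.57, adjusted p = 9.12e-10). CALR (-0.19 ± 0.14), PDIA4 (-0.36 ± 0.18) and DDIT3 (-0.62 ± 0.33) were not called against MNNG_Low, with adjusted p of 0.204, 0.0636 and 0.0817. CHAC1 was higher, at 8.22 and 7.89 (1.61 ± 0.17 against MNNG_Low, 3.05-fold, adjusted p = 4.27e-08). DERL1 was higher, at 11.11 and 10.37 (1.29 ± 0.24, adjusted p = 6.39e-05), but of its 4 probe sets 2 were higher and 2 lower, the latter by -4.91 and -4.30. In 7 members probe sets were called in both directions against MNNG_Low, namely HSP90B1, DNAJC3, HERPUD1, DERL1, DERL2, ERN1 and XBP1.

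A second quantile normalization, which gives the lung arrays the same distribution as the others, kept the fall of most members. Against MNNG_Low it gave 24 lower and 6 higher. Beside them 12462 of all genes were called in either direction, in place of 12541, so most genes differed on these arrays in that fit too. The 6 higher members were HSPA5 (0.46), CALR (1.64), PDIA4 (1.53), DDIT3 (1.02), DERL1 (2.94) and CHAC1 (2.93). The estimates of HSPA5, CALR, PDIA4 and DDIT3 were below 0 without that normalization, so their direction turns with the scaling. DNAJB11 went from -1.79 to 0.076 and HYOU1 from -1.48 to -0.18, and neither was called any longer. MANF (-0.81) and TRIB3 (-0.67) were not called any longer either. Of the 135 further genes, 108 were lower and 14 higher than in MNNG_Low, with a median of -2.72. Over all genes 51.9% were lower and 35.1% higher, with a median of -0.64. The list of translocon and secretory entry was lowest, with 21 of 23 lower and a median of -3.87, among them SSR1 (-5.28), SPCS2 (-4.28), TRAM1 (-4.52) and SRP72 (-5.56).

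Markers of other cells and of bone tumor cells moved on the same lung arrays. Their counts stand beside 35.1% of all genes higher and 51.9% lower than in MNNG_Low. All 6 tested macrophage markers were higher than in MNNG_Low, with a summed level of 10.98 to 11.25 against 8.82 to 9.16, and all 3 erythroid markers, at 9.91 to 9.97 against 7.59 to 7.93. The 3 tested endothelial markers were higher too, at 9.18 to 9.44 against 7.59 to 7.80, and both tested neutrophil markers, at 9.14 to 9.24 against 7.11 to 7.26. Of 5 tested lung epithelial markers 4 were higher and EPCAM lower, at a summed level of 9.84 to 10.18 against 9.44 to 9.87, and 1 of 2 tested skeletal muscle markers was higher, at 9.53 to 9.94 against 8.25 to 8.28. Of the osteoblast markers, 3 of 5 tested were lower, and the summed level of the list was 9.90 to 12.02 against 14.04 to 14.36. PTPRC and LYZ, at 6.02 and 6.51, were above the filter value. The part of these cells in the members' differences was not tested.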

How the data were processed

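The authors deposited 1 log2 signal per probe set and array, computed with RMA according to the submitters' processing notes. The labels do not state which arrays RMA took together. The 18 arrays fell into 5 groups by title and labels. The platform annotation gave 1 gene to 41097 of 54675 probe sets, and a gene was represented by its brightest. A gene was tested if at least 3 arrays reached 5.36, which is the median of all deposited values, and 14418 genes were. The number of arrays limits the precision.

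A single limma 3.58.1 fit (R 4.3.3) over all arrays held 5 group means and gave 7 comparisons, including the lung arrays against each MNNG fraction. P-values were adjusted by Benjamini-Hochberg over all genes, with a threshold of 0.05. After ±, a difference carries its standard error from limma, unless SD is named. On simulated data with 200 changed genes of 14418 and a difference of 1, the fit recovered 76% of them for MNNG_High against MNNG_Low, 74.5% for 143B_High against 143B_Low, 84.5% for 143B_Low against MNNG_Low, 70% for 143B_High against MNNG_High, and 56% and 54% for the lung arrays against MNNG_Low and MNNG_High.

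Tumor numbers pair High and Low cells of a tumor, per the titles, and deviations of same-numbered MNNG arrays from their group means correlated over genes with r of 0.494, 0.370, 0.299 and 0.579. The pools 143B-51&52 and 143B-54&55 were read as tumors 1251 with 1252 and 1254 with 1255.

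The members, the 5 further pathway lists and the 8 marker lists were chosen with earlier results of these data known. Values on every array are given for the 6 called members of smallest p per comparison and for the sensors and transcription factors, and up to 4 called genes of each pathway list are named by smallest p. Additional genes named for a probe set disagreement, for non-overlapping groups or for an alternative were chosen after their values were seen. The host of the tumors is not human and its RNA can meet human probes only by cross-hybridization. Promoter letters and coordinates are RefSeq's; the windows of PDIA3 and DERL1 were not used here.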

Additional observations from a re-analysis of the deposited data

Results flagged for a closer look

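A sample lay far from the rest of its group in 4 of 102 checks (34 members in 3 groups of 4 or 5 arrays), and chance flags about 1 in 20. SEL1L on the 143B_Low array of tumor 143B-1255 was at 8.80, against 9.19 to 9.35 on the other arrays. PPP1R15A on the same array was at 9.14, against 8.66 to 8.79. ASNS on the 143B_Low array of tumor 143B-1252 was at 9.68, against 10.21 to 10.42, and EDEM1 on the MNNG_Low array of tumor MNNG-1235 was at 8.93, against 8.61 to 8.66. No member's High minus Low difference was called as different between the lines.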

How the results depend on the processing

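Counts of called members were most open to the processing in MNNG_High against MNNG_Low, where 1 was called. Of all genes 3761 were called there, and numbers in parentheses give all genes called in the fit named. The alternatives gave 0 with only the groups compared in the fit (2317) and with the GAPDH signal as a covariate (1547). They also gave 0 with no filter (4082), without probe sets of types _x_at and _s_at (3204) and with date tag as a covariate (3). Within the second date tag (chosen after seeing the data), which leaves 1 Low array, the members' median was -0.20. The alternatives gave 2 with the mean over probe sets (3543), 5 after median centring (4710) and 8 without the lung arrays (6407). They gave 8 with array weights, 5 higher and 3 lower (5670), and 11 with the replicate block and no lung arrays (8044). Without single arrays the count was 0 to 7, beside 1376 to 5939 of all genes. The paired fit changed no count within 143B or for the difference between lines, and was not run for the line and lung comparisons. Within 143B and for the difference between lines it was 0 in every alternative, leaving out arrays included. In 143B_High against MNNG_High, 15 became 9 after a second quantile normalization and 9 to 16 without single arrays, and in Low cells 14 became 9 to 13. That normalization gave 3882 of all genes in High cells, in place of 5203. Without single arrays 3465 to 6297 of all genes were called in High cells and 3445 to 3768 in Low cells. In lung, counts were 28 to 34, beside 8930 to 17447 of all genes.

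Directions turned for single members. Without probe sets of types _x_at and _s_at, CALR was at -0.30 in MNNG_High against MNNG_Low and at -0.10 in 143B_Low against MNNG_Low, and HERPUD1 and DERL1 in lung were at 1.41 and -4.30 against Low and at 1.1 and -3.89 against High cells. With the mean over probe sets, SEC61B was at 0.037 in 143B_Low against MNNG_Low, and DERL1 in lung at -1.60 and -1.50. After a second quantile normalization, HSPA5 in lung was at 0.46 and 0.36, DNAJB11 at 0.076 and 0.18 and, against High cells, CALR at 1.07 and PDIA4 at 1.01. Against Low cells CALR, PDIA4 and DDIT3, not called there before, turned to 1.64, 1.53 and 1.02. Other probe sets or another scaling are the construction of these alternatives; which value is nearer the truth was not tested.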
